A study of Caenorhabditis elegans with 24 samples.

Results

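Small RNAs antisense to 5 genes at and beside the retrotransposon CER12 were followed over 12 generations of a temperature shift. The genes F41G4.5, F41G4.7, ZC15.1, ZC15.3 and ZC15.10 were chosen by name from the 20167 genes of the siRNA table, after the study's own list of heat-inducible targets of the nuclear RNAi pathway linked to long terminal repeat (LTR) elements. That list places F41G4.5, F41G4.7 and ZC15.3 at CER12, ZC15.1 beside a CER12 internal part that lies downstream and ZC15.10 beside one that lies upstream. It was made from mRNA of the same experiment and not from the siRNA values used here. From its siRNA profiles, however, the study had already named F41G4.7 and ZC15.3 as rising with heat in WT and falling in the mutant. The tests below on these genes are therefore not independent of that choice.

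Whole young adult Caenorhabditis elegans were collected from the wild-type strain N2 (WT) and from the mutant hrde-1(tm1200), which lacks HRDE-1, the germline nuclear Argonaute protein. Synchronised animals of each genotype were grown on OP50 bacteria, the first 3 generations (names starting with 15C) at 15 °C, the next 6 (23C) at 23 °C and the last 3 (p15C, the return) at 15 °C, each numbered from G1. The temperature shift of 23C-G1 and of p15C-G1 began at the embryo stage, and the study states that 23C-G1 experienced both temperatures. Each genotype gave 1 library in each generation, 24 in all, from the second repeat of the experiment. Phase I holds the 15C generations, phase II the earlier 3 of the 23C generations, phase III the later 3 and phase IV those named p15C, which gives each genotype 3 libraries in a phase. Each genotype was 1 lineage, so that the p-values below measure how far successive generations within that lineage spread and not between independent cultures. The animals at 15 °C were collected at a later hour after larval release than those at 23 °C, and the collection hour and the temperature cannot be told apart. Between phases I and IV, both at 15 °C, the past heat and the order in time cannot be told apart. In RNA of whole animals, fewer cells of a type and less RNA per cell cannot be told apart either.

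In the germline nuclear RNAi pathway, RNA-dependent RNA polymerases copy a target transcript into short antisense siRNAs. HRDE-1 binds such siRNAs, enters the nucleus and directs silencing of the matching gene, and this silencing can pass to the offspring. LTR retrotransposons, which copy themselves through an RNA intermediate and carry their coding part between their repeats, are well known targets. The deposited value of a gene is its RPKM, the reads antisense to its exons divided by exon length and by the reads of the library. It reports siRNA over the gene, not its mRNA.

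The 5 genes lie at 2 loci. In the WBcel235 annotation F41G4.7 (X:16834896-16836404, 4 exons with 1310 bases, protein-coding) and F41G4.5 (X:16829493-16832740, 5 exons with 3059 bases, annotated as a pseudogene) are on the minus strand of chromosome X, with F41G4.5 2155 bases downstream of F41G4.7. F41G4.13, which has no siRNA value here, lies between them, 104 bases after F41G4.7. On the plus strand of chromosome V, ZC15.3 (V:20303588-20304908, 4 exons with 1165 bases) is followed after 1194 bases by ZC15.1 (V:20306103-20308919, 5 exons with 2628 bases) and after a further 1816 bases by ZC15.10 (V:20310736-20311656, 2 exons with 672 bases). All 3 are annotated as protein-coding, and the pseudogene ZC15.4, again with no siRNA value here, lies 144 bases before ZC15.3.

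Both loci thus hold a shorter upstream gene and a longer downstream gene in the same direction. F41G4.5 and ZC15.1 each have 5 exons, and in both the second exon has 105 bases and the third 138 bases. No function is given for any of the 5 genes in the files or the annotation used here. Positions are those of WBcel235, whereas the siRNAs were aligned by the authors to mRNAs of WormBase release WS190.

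**Figure D1:**
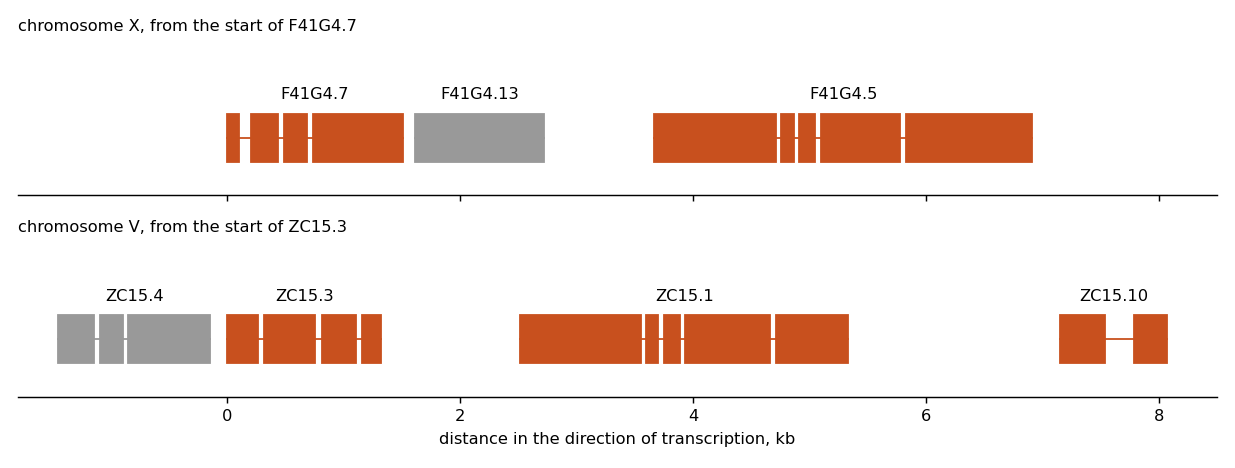
Exons (boxes) of the 5 genes (orange) and of 2 neighbours without siRNA values (grey) against the distance in kb from the start of the first gene of each locus, in the direction of transcription. At both loci a longer gene of 5 exons follows a shorter gene of 4 exons, and ZC15.10 lies farthest downstream on chromosome V.

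In WT the upstream genes carried many siRNAs at every generation and the downstream genes few. F41G4.7 ranged from 392 to 1168 RPKM over the 12 WT libraries, with a median of 733 RPKM. ZC15.3 ranged from 329 to 930 RPKM with a median of 511 RPKM. By contrast, F41G4.5 ranged from 17.5 to 72.0 RPKM with a median of 40.2 RPKM. ZC15.1 ranged from 18.5 to 99.2 RPKM with a median of 53.3 RPKM. The lowest WT value of either upstream gene was thus above the highest of either downstream gene. ZC15.10, the last gene of the V locus, was as high as the upstream genes, with 431 to 1032 RPKM and a median of 626 RPKM.

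In hrde-1 the upstream genes were no longer above the downstream genes at every generation. In the 12 hrde-1 libraries F41G4.7 ranged from 29.6 to 372 RPKM with a median of 101 RPKM, and ZC15.3 from 51.4 to 373 RPKM with a median of 178 RPKM. F41G4.5 ranged from 101 to 225 RPKM with a median of 143 RPKM, and ZC15.1 from 151 to 320 RPKM with a median of 248 RPKM. The ranges of all 4 genes over the 12 libraries now overlapped, although in phases III and IV each downstream gene was above its upstream gene in every library. For F41G4.5 and ZC15.1, each hrde-1 library was above each WT library, and for F41G4.7 each was below. ZC15.10 spanned 307 to 1265 RPKM with a median of 544 RPKM, which overlapped its WT range.

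**Figure D2:**
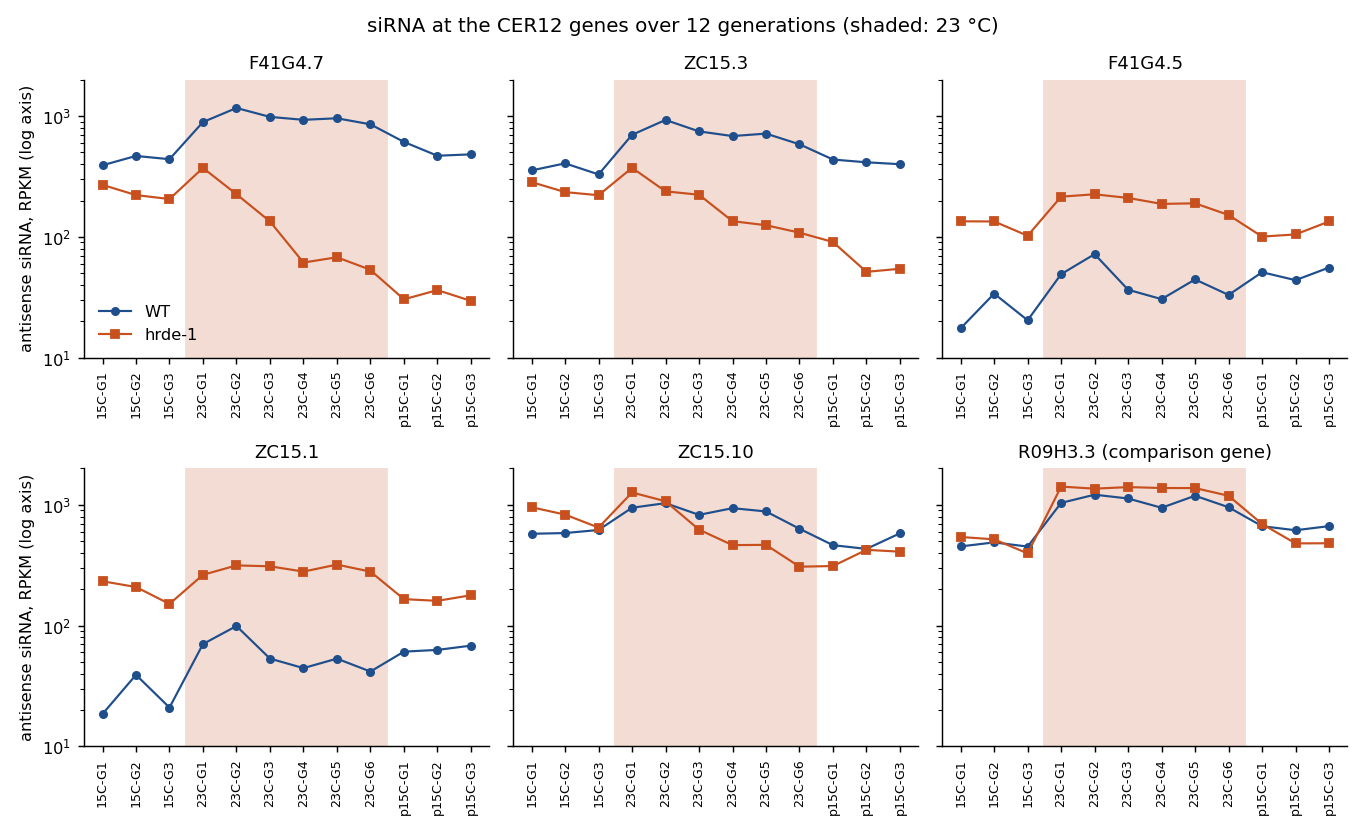
Antisense siRNA in RPKM (log axis) of the 5 genes and of the comparison gene R09H3.3 in each of the 12 generations, 1 library per point, WT in blue and hrde-1 in orange, with the generations at 23 °C shaded. F41G4.7 and ZC15.3 part between the genotypes over the generations, F41G4.5 and ZC15.1 are higher in hrde-1 throughout, and R09H3.3 rises at 23 °C and is lower again after the return in both.

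Genotypes were first compared within each phase. In phase I, before heat, F41G4.5 and ZC15.1 were higher in hrde-1 and neither upstream gene was called lower. A gene was called where its change was 2-fold or more with an adjusted p no higher than 0.1 in limma's fit over 19839 genes. Of all genes, 3.72% were called higher and 4.1% lower in phase I.

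F41G4.5 stood at 17.5, 33.9 and 20.4 RPKM in WT 15C-G1 to G3 and at 135, 134 and 102 RPKM in hrde-1. ZC15.1 stood at 18.5, 39.1 and 21.0 RPKM in WT and at 233, 209 and 151 RPKM in hrde-1. For both genes the lowest mutant library was more than 3 times the highest WT library. The log2 fold change was 2.37 ± 0.23 (SE, adjusted p = 6.93e-08) for F41G4.5 and 2.92 ± 0.23 (adjusted p = 1.47e-09) for ZC15.1.

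F41G4.7 stood at 392, 468 and 440 RPKM in WT 15C-G1 to G3 and at 270, 222 and 206 RPKM in hrde-1. ZC15.3 stood at 355, 406 and 329 RPKM in WT and at 284, 235 and 221 RPKM in hrde-1. The mutant libraries lay below the WT libraries without overlap for both genes, yet by less than 2-fold. F41G4.7 had a log2 fold change of -0.90 ± 0.23 (adjusted p = 0.00997), which reached -1.01 without hrde-1 15C-G1 and was then called. The value of ZC15.3 was -0.56 ± 0.19 (adjusted p = 0.0774). ZC15.10 stood at 576, 584 and 619 RPKM in WT and at 954, 830 and 648 RPKM in hrde-1, higher in each mutant library but not called (0.43 ± 0.22, adjusted p = 0.263).

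In phase II, the first 3 generations at 23 °C, both upstream genes were called lower in hrde-1 and both downstream genes higher. Over all genes 2.5% were called higher and 3.2% lower. F41G4.7 stood at 893, 1168 and 985 RPKM in WT 23C-G1 to G3 and at 372, 226 and 134 RPKM in hrde-1. The WT values were roughly level over these generations, while each mutant value was below the one before. ZC15.3 stood at 700, 930 and 747 RPKM in WT and at 373, 238 and 223 RPKM in hrde-1. The log2 fold changes were -2.16 ± 0.23 (adjusted p = 2e-07) for F41G4.7 and -1.53 ± 0.19 (adjusted p = 3.85e-06) for ZC15.3.

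The downstream genes kept their difference at 23 °C at higher levels in both genotypes. F41G4.5 stood at 49.2, 72.0 and 36.5 RPKM in WT 23C-G1 to G3 and at 215, 225 and 210 RPKM in hrde-1. ZC15.1 stood at 70.4, 99.2 and 53.3 RPKM in WT and at 263.4, 315 and 310 RPKM in hrde-1. The groups did not overlap for either gene, with log2 fold changes of 2.08 ± 0.23 (adjusted p = 6.25e-07) and 2.02 ± 0.23 (adjusted p = 6.46e-07). ZC15.10 overlapped between the genotypes, at 946, 1032 and 826 RPKM in WT and at 1265, 1070 and 623 RPKM in hrde-1, and its 95% interval ran from -0.43 to 0.47 on the log2 scale.

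In phase III, the last 3 generations at 23 °C, 2.68% of all genes were called higher and 3.18% lower, with F41G4.5 and ZC15.1 among the higher and F41G4.7 and ZC15.3 among the lower. F41G4.7 stood at 932, 960 and 855 RPKM in WT 23C-G4 to G6 and at 61.3, 67.9 and 53.4 RPKM in hrde-1, where about 24.6 to 39.4 reads lay behind a value. ZC15.3 stood at 684, 716 and 585 RPKM in WT and at 135, 125 and 108 RPKM in hrde-1. The mean of F41G4.7 was 15.0 times lower in the mutant and that of ZC15.3 5.39 times. The log2 fold changes were -3.89 ± 0.23 (adjusted p = 1.17e-11) and -2.42 ± 0.19 (adjusted p = 2.37e-09).

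F41G4.5 stood at 30.5, 44.5 and 33.1 RPKM in WT 23C-G4 to G6 and at 188, 190 and 152 RPKM in hrde-1. ZC15.1 stood at 44.5, 53.3 and 41.6 RPKM in WT and at 280, 320 and 280 RPKM in hrde-1. Neither gene overlapped between the genotypes, with log2 fold changes of 2.27 ± 0.23 (adjusted p = 1.42e-07) and 2.64 ± 0.23 (adjusted p = 8.13e-09). ZC15.10 stood at 938, 881 and 634 RPKM in WT and at 464, 466 and 307 RPKM in hrde-1. It was now lower in each mutant library, with a log2 fold change of -0.99 ± 0.22 (adjusted p = 0.00348) that lay just under the fold minimum. It passed that minimum without WT 23C-G6 (-1.16) and without hrde-1 23C-G4 or G5 (both -1.09).

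In phase IV, back at 15 °C, 3.65% of all genes were called higher and 4.34% lower. F41G4.7 stood at 611, 470 and 482 RPKM in WT p15C-G1 to G3 and at 30.4, 36.3 and 29.6 RPKM in hrde-1, with 25.6 to 29.8 reads behind each mutant value. ZC15.3 stood at 437, 415 and 400 RPKM in WT and at 90.8, 51.4 and 54.5 RPKM in hrde-1. These were the lowest mutant values of both genes in the series, and the WT values were below those at 23 °C. The log2 fold changes were -3.98 ± 0.23 (adjusted p = 9.82e-12) and -2.70 ± 0.19 (adjusted p = 3.88e-10).

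The downstream genes differed least in phase IV, though they were still called higher in hrde-1. F41G4.5 stood at 51.0, 43.8 and 55.8 RPKM in WT p15C-G1 to G3 and at 101, 105 and 134 RPKM in hrde-1. ZC15.1 stood at 60.9, 62.9 and 68.2 RPKM in WT and at 166, 160 and 178 RPKM in hrde-1. No mutant library overlapped the WT libraries, and the log2 fold changes were 1.15 ± 0.23 (adjusted p = 0.00126) and 1.38 ± 0.23 (adjusted p = 0.000117). ZC15.10 stood at 463, 431 and 581 RPKM in WT and at 311, 424 and 409 RPKM in hrde-1, lower in each mutant library but not called (-0.37 ± 0.22, adjusted p = 0.445). The calls of F41G4.5, ZC15.1, F41G4.7 and ZC15.3 in phases II to IV held when each of the 24 libraries was left out in turn.

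**Figure D3:**
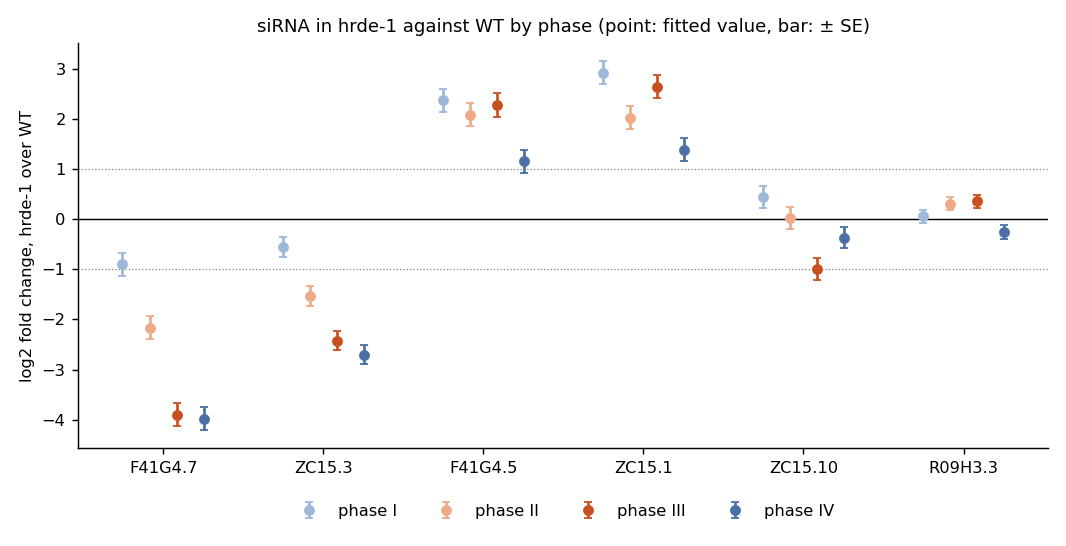
Fitted log2 fold change of siRNA in hrde-1 over WT (vertical axis, ± SE, n = 3 libraries per genotype) for each gene in phases I to IV, with dotted lines at a 2-fold change. F41G4.7 and ZC15.3 lie above -1 in phase I and far below it later, F41G4.5 and ZC15.1 lie above 1 in all phases, and R09H3.3 stays within 0.36 of 0.

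The effect of temperature was then compared within each genotype, with 23C-G2 to G6 (n = 5) against 15C-G1 to G3 (n = 3). In WT, F41G4.7 and ZC15.1 rose at 23 °C, and no member fell. Of all genes 3.94% were called higher and 2.64% lower in this comparison. The mean of F41G4.7 was 433 ± 38.6 RPKM (SD) at 15 °C and 980.0 ± 116 RPKM at 23 °C, and that of ZC15.1 was 26.2 ± 11.2 RPKM and 58.4 ± 23.4 RPKM. Neither gene overlapped between the temperatures, with log2 fold changes of 1.17 ± 0.30 (adjusted p = 0.0153) for F41G4.7 and 1.13 ± 0.23 (adjusted p = 0.0025) for ZC15.1. The value of ZC15.1 fell under the fold minimum without WT 15C-G1 (0.93, adjusted p = 0.0306) or without WT 23C-G2 (0.92, adjusted p = 0.00304).

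ZC15.3 and F41G4.5 came close to the fold minimum in WT. ZC15.3 went from 364 ± 39.3 RPKM at 15 °C to 732 ± 126 RPKM at 23 °C without overlap, a log2 fold change of 1.00 ± 0.22 (adjusted p = 0.00545) just under that minimum. Without WT 15C-G2, 23C-G4, 23C-G5 or 23C-G6 it was called, at 1.00 to 1.08. F41G4.5 went from 23.9 ± 8.75 RPKM to 43.3 ± 16.9 RPKM with overlapping libraries (0.81 ± 0.24, adjusted p = 0.0311), and was called without WT 15C-G2 (1.08, adjusted p = 0.00794). ZC15.10 went from 593 ± 23.1 RPKM to 862 ± 149 RPKM without overlap, and was not called (0.52 ± 0.26, adjusted p = 0.269).

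In hrde-1 the members moved in both directions at 23 °C, and only F41G4.7 passed, as lower. Of all genes 3.71% were called higher and 2.7% lower. F41G4.7 went from 232 ± 33.2 RPKM at 15 °C to 109 ± 73.0 RPKM over 23C-G2 to G6, with 23C-G2 inside the range at 15 °C and the other 4 libraries below it. Its log2 fold change was -1.31 ± 0.30 (adjusted p = 0.00744). With 23C-G1 added to the libraries at 23 °C, in which F41G4.7 stood at 372 RPKM, the value was -0.98 and no member was called.

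The means of ZC15.3 and ZC15.10 were likewise lower in hrde-1 at 23 °C, and those of the downstream genes higher, all by less than 2-fold. ZC15.3 went from 247 ± 33.1 to 166 ± 60.2 RPKM (-0.63 ± 0.22, adjusted p = 0.0333) and ZC15.10 from 811 ± 154 to 586 ± 293 RPKM (-0.58 ± 0.26, adjusted p = 0.0833), both with overlapping libraries. F41G4.5 went from 124 ± 18.6 to 193 ± 27.7 RPKM (0.64 ± 0.24, adjusted p = 0.0402) and ZC15.1 from 198 ± 42.0 to 301 ± 19.5 RPKM (0.63 ± 0.23, adjusted p = 0.0415), both without overlap.

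The heat responses of F41G4.7 and ZC15.3 differed between the genotypes. In the test of the difference, the log2 change at 23 °C in hrde-1 minus that in WT, 1.11% of all genes were called higher and 1.41% lower, and 2 of the 5 members were called, both lower. The difference was -2.48 ± 0.43 (adjusted p = 0.00221) for F41G4.7 and -1.63 ± 0.32 (adjusted p = 0.00575) for ZC15.3. For ZC15.10 it was -1.10 ± 0.36 (adjusted p = 0.151), which was called without hrde-1 23C-G2 (-1.35, adjusted p = 0.0067) and with a filter at a mean of 10 RPKM (adjusted p = 0.0974). The differences of F41G4.5 (-0.18, 95% interval -0.87 to 0.51) and ZC15.1 (-0.50, interval -1.19 to 0.18) did not pass, and these intervals leave room for a difference in either direction.

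**Figure D4:**
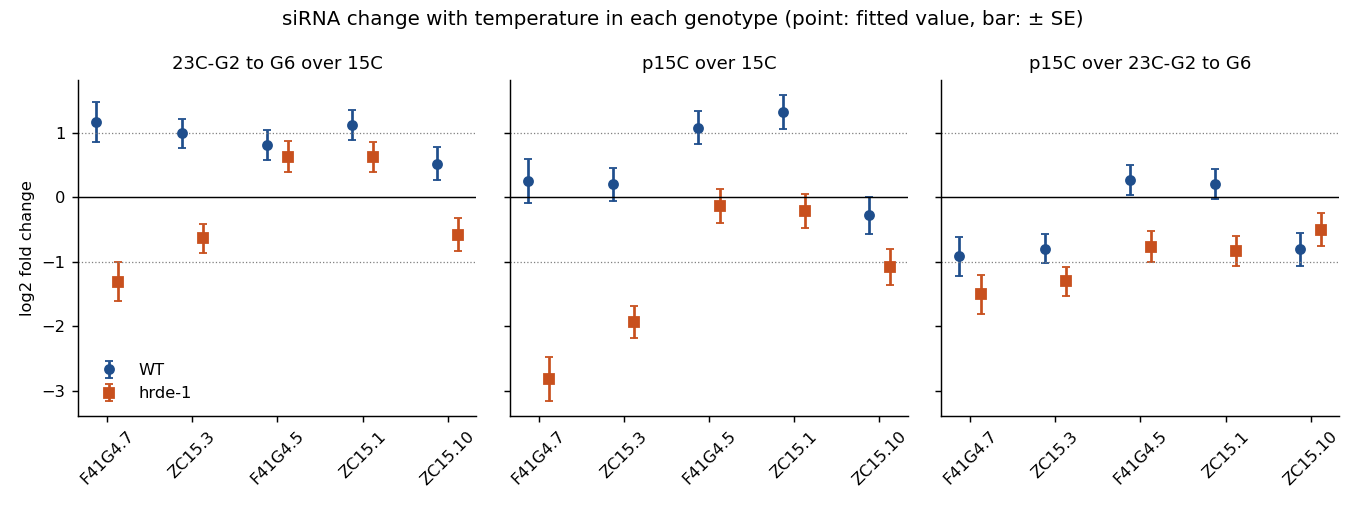
Fitted log2 fold change of siRNA (vertical axis, ± SE) in WT (blue) and hrde-1 (orange) for 23C-G2 to G6 over 15C, for p15C over 15C and for p15C over 23C-G2 to G6, with dotted lines at a 2-fold change. In the first panel F41G4.7 and ZC15.3 lie above 0 in WT and below it in hrde-1, and in the second F41G4.5 and ZC15.1 lie above 1 only for WT.

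After the return to 15 °C the members did not all regain their first levels. Phase IV was compared with phase I in each genotype (n = 3 libraries each). In WT the 2 downstream genes were higher after heat than before, where 2.45% of all genes were called higher and 1.13% lower. The mean of F41G4.5 was 23.9 ± 8.75 RPKM before and 50.2 ± 6.00 RPKM after heat, a log2 fold change of 1.09 ± 0.26 (adjusted p = 0.0456). That of ZC15.1 was 26.2 ± 11.2 RPKM before and 64.0 ± 3.81 RPKM after, a log2 fold change of 1.33 ± 0.26 (adjusted p = 0.0114). Neither gene overlapped between the phases. The call of F41G4.5 was lost without WT 15C-G1 (0.90, adjusted p = 0.104) or without WT p15C-G3 (1.01, adjusted p = 0.101), while that of ZC15.1 held without each library. The other 3 members had WT means of 521 ± 78.3 RPKM (F41G4.7), 417 ± 18.7 RPKM (ZC15.3) and 492 ± 78.6 RPKM (ZC15.10) after heat, none of them called.

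In hrde-1 the upstream genes and ZC15.10 were lower after heat than before. There 1.19% of all genes were called higher and 0.635% lower, and 3 of the 5 members were called, all lower. F41G4.7 had a mean of 232 ± 33.2 RPKM before and 32.1 ± 3.65 RPKM after heat, 7.24 times lower, with a log2 fold change of -2.82 ± 0.34 (adjusted p = 4.04e-05). For ZC15.3 the means were 247 ± 33.1 and 65.5 ± 21.9 RPKM, 3.77 times lower (-1.94 ± 0.25, adjusted p = 9.18e-05). Those of ZC15.10 were 811 ± 154 and 381 ± 61.3 RPKM, 2.13 times lower (-1.08 ± 0.29, adjusted p = 0.0551). None of the 3 overlapped between the phases.

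The call of ZC15.10 depended on single libraries. It was lost without hrde-1 15C-G1 (-0.95, adjusted p = 0.256), 15C-G2 (-1.05, adjusted p = 0.173), p15C-G1 (-0.94, adjusted p = 0.246) or p15C-G3 (-1.14, adjusted p = 0.109), whereas those of F41G4.7 and ZC15.3 held without each library. F41G4.5, with 124 ± 18.6 RPKM before and 113 ± 18.3 RPKM after heat, and ZC15.1, with 198 ± 42.0 and 168 ± 9.26 RPKM, overlapped between the phases and were not called in hrde-1.

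Tested directly, the lasting change differed between the genotypes for F41G4.7 (-3.07 ± 0.48, adjusted p = 0.00214), ZC15.3 (-2.14 ± 0.36, adjusted p = 0.00379) and ZC15.1 (-1.54 ± 0.37, adjusted p = 0.0513). All 3 values are hrde-1 minus WT on the log2 scale. Of all genes, 0.625% were called higher and 0.428% lower. For F41G4.7 and ZC15.3 the difference came with a fall in hrde-1, and for ZC15.1 with a rise in WT. The call of ZC15.1 was lost without any of 7 libraries, WT 15C-G1, 15C-G3, p15C-G2 and p15C-G3 and hrde-1 15C-G1, 15C-G2 and p15C-G2, at an adjusted p of 0.111 to 0.146. The value of F41G4.5 was -1.21 ± 0.37 (adjusted p = 0.183), which passed without WT 15C-G2 (adjusted p = 0.0633) or without WT 23C-G2 (adjusted p = 0.0671).

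Between 23C-G2 to G6 and the following p15C generations, F41G4.7 and ZC15.3 fell in hrde-1 and no member was called in WT. In hrde-1 F41G4.7 went from 109 ± 73.0 RPKM (n = 5) to 32.1 ± 3.65 RPKM (n = 3) and ZC15.3 from 166 ± 60.2 to 65.5 ± 21.9 RPKM. Neither overlapped, with log2 fold changes of -1.51 ± 0.30 (adjusted p = 0.00356) and -1.30 ± 0.22 (adjusted p = 0.000901), against 3.22% of all genes called higher and 2.88% lower. In WT, where 3.17% of all genes were called higher and 3.13% lower by limma, 0 members passed and 3 were lower at an unadjusted p under 0.05, as were 35.1% of all genes. The median log2 fold change of all genes was itself -0.26 in WT and -0.29 in hrde-1. No value of the series was 0, and the p15C libraries were deeper. WT had 299416 to 552608 reads in 23C-G2 to G6 and 584283 to 1042970 in p15C. Whether depth moved the values of genes with few reads, and so these shares and medians, was not tested. Among the 3 WT members F41G4.7, with at least 365 reads in each library compared, went from 980.0 ± 116 to 521 ± 78.3 RPKM (-0.91 ± 0.30, adjusted p = 0.0227). It was called without WT p15C-G1 (-1.03, adjusted p = 0.0276).

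From 23 °C to the return, the means of the downstream genes were slightly higher in WT and lower in hrde-1, and the test of this difference made no call. F41G4.5 went from 43.3 to 50.2 RPKM in WT and from 193 to 113 RPKM in hrde-1, and ZC15.1 from 58.4 to 64.0 RPKM in WT and from 301 to 168 RPKM in hrde-1. The differences of the log2 changes were -1.04 ± 0.33 (adjusted p = 0.195) and -1.04 ± 0.33 (adjusted p = 0.189). In this test limma called 0 members and 0.595% of all genes as higher and 0.67% as lower, and 2 members were lower at an unadjusted p under 0.05, as were 5.09% of all genes. Without WT 23C-G2, the generation with the highest WT values of both genes, the 2 differences were called (-1.23, adjusted p = 0.0371, and -1.24, adjusted p = 0.0257).

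Over the 6 generations at 23 °C, siRNA of F41G4.7, ZC15.3 and ZC15.10 declined in hrde-1. F41G4.7 stood at 372, 226, 134, 61.3, 67.9 and 53.4 RPKM in hrde-1 23C-G1 to G6. ZC15.3 stood at 373, 238, 223, 135, 125 and 108 RPKM. ZC15.10 stood at 1265, 1070, 623, 464, 466 and 307 RPKM. ZC15.3 was lower at each step, and F41G4.7 and ZC15.10 at each step other than that from 23C-G4 to 23C-G5. Each of the 3 genes had its highest mutant value of all 12 generations in 23C-G1, the generation shifted to 23 °C at the embryo stage. Each had its lowest value at 23 °C in 23C-G6.

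The slopes in hrde-1 were -0.58 ± 0.06 log2 units per generation for F41G4.7 (adjusted p = 8.22e-05), -0.35 ± 0.04 for ZC15.3 (adjusted p = 0.00056) and -0.41 ± 0.04 for ZC15.10 (adjusted p = 8.22e-05). Here a gene was called at an adjusted p of at most 0.1 with no fold minimum, which 0.459% of all genes passed as lower and 0.711% as higher. These slopes include 23C-G1, which had experienced both temperatures. The calls of F41G4.7, ZC15.3 and ZC15.10 in hrde-1 held without it. Their adjusted p in limma was at most 0.0422, 0.0475 and 0.0306 over all other settings and left-out libraries. The value in 23C-G6 was 6.97 times lower than that in 23C-G1 for F41G4.7, 3.44 times for ZC15.3 and 4.11 times for ZC15.10. F41G4.5 was 1.42 times lower (slope -0.10 ± 0.07, adjusted p = 0.898) and ZC15.1 1.06 times higher (slope 0.01 ± 0.06, adjusted p = 0.948), and neither slope was called.

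In WT limma called 0 members for a slope at 23 °C, where 0.192% of all genes were called higher and 0.328% lower. At an unadjusted p under 0.05, 3 members had a negative slope, F41G4.5 (-0.15 ± 0.07), ZC15.1 (-0.19 ± 0.06) and ZC15.10 (-0.10 ± 0.04), as did 3.79% of all genes. F41G4.7 ended at 855 RPKM in WT 23C-G6 after 893 RPKM in 23C-G1. The slope of hrde-1 minus that of WT was -0.54 ± 0.08 for F41G4.7 (adjusted p = 0.0115) and -0.31 ± 0.06 for ZC15.10 (adjusted p = 0.0484), with 0.111% of all genes called higher and 0.0605% lower.

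Both slope differences lost their call without the first generation at 23 °C. Without WT 23C-G1 the adjusted p was 0.166 for F41G4.7 and 0.272 for ZC15.10, and without hrde-1 23C-G1 it was 0.116 and 0.222. ZC15.10 further lost its call without hrde-1 23C-G2 (adjusted p = 0.102) or 23C-G6 (adjusted p = 0.162). Without 23C-G1 of both genotypes the difference of F41G4.7 was -0.42 and that of ZC15.10 -0.27, neither called. For ZC15.3 the difference was -0.28 ± 0.06 (adjusted p = 0.136), called without WT 23C-G2 (adjusted p = 0.0754).

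Upstream and downstream genes were then set against each other within each library, which needs no scaling between libraries. In WT phase I the RPKM of F41G4.7 was 13.8 to 22.4 times that of F41G4.5. In hrde-1 phase I it was 1.65 to 2.01 times, and in phases III and IV F41G4.5 was the higher gene, at 2.79 to 3.06 times and 2.89 to 4.54 times F41G4.7. At the V locus ZC15.3 was 10.4 to 19.2 times ZC15.1 in WT phase I and 1.13 to 1.46 times in hrde-1. The order turned here too, and ZC15.1 was 2.07 to 2.58 times ZC15.3 in hrde-1 phase III and 1.82 to 3.27 times in phase IV.

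The ratio never turned in WT at either locus. Over the 12 WT libraries F41G4.5 had 0.0328 to 0.116 times the RPKM of F41G4.7, and ZC15.1 0.0522 to 0.171 times that of ZC15.3. The 3 highest WT ratios at each locus were those of p15C-G1 to G3, the generations after heat, in which the downstream genes stayed higher.

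**Figure D5:**
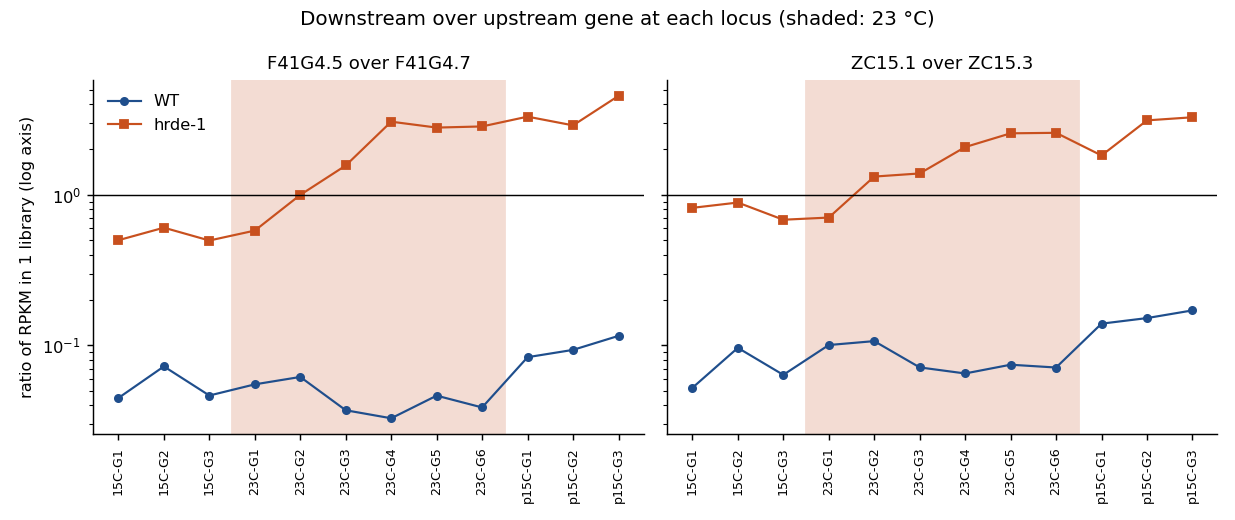
Ratio of the RPKM of the downstream gene to that of the upstream gene within 1 library (log axis) over the 12 generations, F41G4.5 over F41G4.7 on the left and ZC15.1 over ZC15.3 on the right, WT in blue and hrde-1 in orange, 23 °C shaded. WT reaches at most 0.116 and 0.171, and hrde-1 passes the line at 1 during the first generations at 23 °C.

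Multiplied by exon length, RPKM gives the siRNA reads over a gene as RPM, reads scaled to a library of 1000000 reads. Summed over F41G4.7 and F41G4.5, WT had 641 ± 75.1 RPM (SD, n = 3) in phase I and 1310 ± 85.8 in phase III, and hrde-1 had 683 ± 92.7 and 619 ± 73.7. The share of F41G4.5 in this sum was 11.2% ± 2.81 in WT phase I and 8.39% ± 1.33 in phase III. Over the 4 phases of hrde-1 it was 55.4% ± 2.76, 68.7% ± 10.6, 87.1% ± 0.533 and 89.0% ± 2.18. In phase I the sums of the genotypes overlapped while the shares lay far apart.

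Summed over ZC15.3 and ZC15.1, WT had 492 ± 73.6 RPM in phase I and hrde-1 807 ± 145. In phase III the sums were 893 ± 93.7 in WT and 914 ± 65.0 in hrde-1, with overlapping libraries. The share of ZC15.1 was 13.6% ± 3.77 in WT phase I and 64.1% ± 3.12 in hrde-1, and 13.7% ± 0.80 against 84.3% ± 1.67 in phase III. These sums use exon lengths of WBcel235 and were given no test. Of low read counts inferred with these lengths, 0 of 7 for F41G4.7 and 5 of 9 for F41G4.5 lay near a whole number. Their lengths in WS190 were not at hand, so the sums, shares and read numbers of both genes are approximate.

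The response to the mutation differed between all pairs of members. For each of the 10 pairs the difference of log2 values within a library was averaged over the 4 phases as hrde-1 minus WT, and genotype labels were exchanged within phases in an exact two-sided permutation test, with p-values adjusted over the 10 pairs. F41G4.5 exceeded F41G4.7 by 4.7 log2 units in its genotype change, and ZC15.1 exceeded ZC15.3 by 4.04. In both pairs the p was 1.25e-05, the smallest that the relabelings can give, and the adjusted p 1.39e-05. The value was -1.58 for ZC15.3 minus ZC15.10 and -2.51 for F41G4.7 minus ZC15.10, with the same exact p.

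Of the 10 pairs, genes in the same place of the 2 loci differed least. The value was -0.93 log2 units for F41G4.7 minus ZC15.3 (exact p = 1.25e-05, adjusted p = 1.39e-05) and -0.27 for F41G4.5 minus ZC15.1 (exact p = 0.00185, adjusted p = 0.00185). Over the 24 libraries F41G4.5 and ZC15.1 had a Pearson correlation of 0.991 on the log2 scale, and each was the nearest of 8395 genes to the other. F41G4.7 and ZC15.3 had one of 0.983 and were likewise each other's nearest. These correlations are a description over libraries that share genotype and temperature. The sources used here do not say how reads that match both copies of a gene were counted. The inferred reads of ZC15.1 and ZC15.3 lay on steps of 0.5 reads, and of their values between 5 and 100 reads, 4 of 8 and 4 of 7 were within 0.1 of a whole number plus 0.5. Of 1025 genes on such steps, 15.5% had at least 25% of their values at such a point. With the WBcel235 exon lengths, F41G4.5 had 1 of 9 values at such a point and F41G4.7 1 of 7. Near a whole number lay 5 of 9 values of F41G4.5 and 0 of 7 of F41G4.7. Neither gene thus lay on these steps, and steps of 0.5 reads cannot be read from them. Which genes share reads with ZC15.1 and ZC15.3 was not tested. Whether the like course came from siRNAs shared between copies or from separate siRNAs was not tested either.

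ZC15.10 followed neither pair closely, with a correlation of 0.673 with F41G4.7, 0.666 with ZC15.3, -0.0419 with F41G4.5 and -0.0756 with ZC15.1. In hrde-1 it was 2.79 to 8.25 times as high as ZC15.3, its locus neighbour upstream, and in WT 1.04 to 1.88 times.

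R09H3.3, which the study places some kilobases from another CER12 internal part on chromosome X (X:1667019-1668848 in WBcel235), was not called lower in the mutant. Its WT means were 464 ± 21.2, 1126 ± 87.8, 1030 ± 138 and 649 ± 28.8 RPKM in phases I to IV, and its hrde-1 means 485 ± 78.1, 1392 ± 28.6, 1314 ± 109 and 551 ± 124 RPKM. In no phase was it called between genotypes, with log2 fold changes from -0.26 to 0.36. At 23 °C it rose in WT (1.22 ± 0.12, adjusted p = 9.18e-07) and in hrde-1 (1.48 ± 0.12, adjusted p = 6.2e-08). After the return it was lower by less than 2-fold in WT (-0.73 ± 0.12, adjusted p = 0.000466) and was called lower in hrde-1 (-1.30 ± 0.12, adjusted p = 8.26e-07), and the difference of these changes was not called (-0.57 ± 0.17, adjusted p = 0.164). In WT it ran close to F41G4.7, at 1.01 to 1.38 times its RPKM in each library, and in hrde-1 it was 1.92 to 22.8 times as high.

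Among the 10 other genes of the table named after the same clones, F41G4.4 and cas-1 (F41G4.2) were called in every phase between genotypes. F41G4.4 was higher in hrde-1, with 11.5 ± 2.87 RPKM in WT and 47.4 ± 2.46 RPKM in hrde-1 in phase I, and 15.2 ± 9.62 against 248 ± 29.6 RPKM in phase III. Its log2 fold change was 1.98 ± 0.41 (adjusted p = 0.00155) in phase I, 4.08 ± 0.41 (adjusted p = 8.11e-08) in phase III and 1.58 ± 0.41 (adjusted p = 0.0116) in phase IV. It rose at 23 °C in hrde-1 from 47.4 to 209 RPKM (2.07 ± 0.37, adjusted p = 0.000848), and fell back to 37.02 RPKM (-2.46 ± 0.37, adjusted p = 0.00025). Its position is not in the annotation used here, and its distance from F41G4.5 is therefore not given.

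The gene cas-1, which encodes a cyclase-associated protein that acts on actin, was lower in hrde-1, at 4.31 against 0.983 RPKM in phase I and 23.2 against 4.12 RPKM in phase II. These are few reads, since 1 read over 1 kilobase was worth 0.959 to 3.34 RPKM. Of the same 10 genes, 3 were called higher at 23 °C in hrde-1, among them the C-type lectin gene clec-262 (1.83 to 6.04 RPKM, adjusted p = 0.00539), and 1 in WT. The other 7 genes had means of 1.11 to 8.28 RPKM in every phase, far under the members.

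Of 12 other genes that the study links to LTR elements, a list with R09H3.3 in it and chosen on mRNA of this experiment, 1 was called higher and 3 lower in hrde-1 in each of phases I and II, and 0 higher and 6 lower in each of phases III and IV. Their median log2 fold change was 0.04, -0.63, -1.0 and -0.94 in the 4 phases, beside -0.19, 0.14, 0.11 and 0.07 over all genes. The median of the 5 members was in each phase the value of ZC15.10, at 0.43, 0.02, -0.99 and -0.37. F41G4.5 and ZC15.1 lay above it and F41G4.7 and ZC15.3 below it, so that it shows no course shared by the members. ZK262.9 went from -1.07 in phase I to -4.31 in phase III (adjusted p = 9.27e-12) and F40D4.13 from -3.25 to -4.05 (adjusted p = 7.73e-14). C13B9.4 was higher in hrde-1 in phase I (2.11 ± 0.28, adjusted p = 5.25e-06), at 236 against 54.1 RPKM, and not called in phases III and IV.

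Of 30 genes of the nuclear RNAi and siRNA amplification machinery limma called 0 between genotypes in phases I, II and III and 1 lower in phase IV, hrde-1 itself. At an unadjusted p under 0.05, 11 were higher and 2 lower in phase I, beside 9.58% and 11.4% of all genes. Phase II had 10 higher and 4 lower, phase III 5 higher and 3 lower, and phase IV 5 higher and 6 lower, where the shares of all genes were 7.97% to 8.48% higher and 7.24% to 9.63% lower. Antisense siRNA of hrde-1 was 300 ± 21.5 RPKM in WT phase I and 153 ± 9.30 RPKM in the mutant, and 287 ± 16 against 134 ± 12.8 RPKM in phase IV (-1.09 ± 0.12, adjusted p = 4.55e-07). This is siRNA over the gene and does not test its deletion.

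Some genes outside the 5 took the same course as a member over the 24 libraries. The 3 genes with the highest Pearson correlation among those with a mean of at least 10 RPKM are named for each member, as a description. For F41G4.5 they were Y32G9A.3 (0.945), F54C9.7 (0.941) and B0286.3 (0.937), and for ZC15.1 Y32G9A.3 (0.955), F54C9.7 (0.954) and F20B4.3 (0.948). F54C9.7 went from 4.61 RPKM in WT to 176 RPKM in hrde-1 in phase I, and Y32G9A.3 from 44.7 to 199.8 RPKM.

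For F41G4.7 the nearest genes were F57G4.5 (0.967), F31E9.6 (0.965) and F57G4.6 (0.964). F57G4.5 stood at 259 RPKM in WT and 116 RPKM in hrde-1 in phase I, and at 396 against 25.3 RPKM in phase IV. For ZC15.3 they were ZK262.8 (0.963), which is on the list linked to LTR elements, and AC8.10 and AC8.3 (both 0.958), whose phase means were identical. ZC15.10 had weaker neighbours, Y53F4B.10 (0.846), the F-box gene fbxb-14 (0.831) and C33C12.11 (0.829).

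The RPKM values imply 299416 to 1042970 reads behind a library, with a median of 491924, so that the members had from 24.5 to 838 reads in a library. These inferred depths are far below the average of sequenced tags that the study states for its small RNA libraries. The reason for this gap was not tested. The lowest of these belong to F41G4.7 in hrde-1 phases III and IV and to F41G4.5 and ZC15.1 in WT phases I and III. Phase IV libraries had 584283 to 1042970 reads. Lists of germline, sperm, intestine, muscle, epidermis and neuron markers held siRNAs of 22 tested genes, of which 2 to 4 were called in a phase between genotypes, and since siRNA over a marker is not its mRNA, these lists cannot count cells.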

How the data were processed

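The deposited table gives an RPKM value for each mRNA in each library. It comes from small RNA reads that the authors mapped to WS190 mRNAs from WormBase with Bowtie 0.12.7. Perfect antisense matches were kept and divided by total reads and exon length. The sources used here do not say how reads with matches in several genes were counted. Libraries were made with a cloning procedure that does not depend on the phosphates at the 5′ end. Depth was inferred from the most frequent product of RPKM and exon length in each library, taken as 1 read. It covers counting error only.

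Values were used as log2(RPKM + 1). Of 20167 genes, those whose 24 libraries averaged 1 RPKM or more (19839 genes) entered limma 3.58.1 under R 4.3.3, with eBayes trended, two-sided p-values and Benjamini-Hochberg adjustment. All 5 members passed this filter. A first model held 8 genotype and phase means, a second 8 means with 23C-G1 apart, and a further model the slopes of the 12 libraries at 23 °C. For the 616 genes with several transcripts, 1 was kept. Member pairs were tested by exact permutation of genotype within phases. The code was tested on simulated data.

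Named genes are the 5 members, the 3 most correlated genes of each, and called genes of the lists (up to 4 per list). The members and lists were chosen with earlier results of these data known. The alternatives were another pseudocount, a filter at a mean of 10 RPKM, median-ratio scaling, taking off the value of 1 read, other uses of 23C-G1, a block by generation and leaving out each library. Positions come from WBcel235. Tables and plots used python 3.11.15, pandas 2.3.3, scipy 1.17.1 and matplotlib 3.10.9.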

Additional observations from a re-analysis of the deposited data

Results flagged for a closer look

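In 7 of 20 tests, a temperature effect on a member differed between the genotypes, each value being hrde-1 minus WT on the log2 scale. The heat response differed for F41G4.7 (-2.482) and ZC15.3 (-1.632), which rose or came close to the fold minimum in WT and were lower in hrde-1. The change that lasted after heat differed for F41G4.7 (-3.075), ZC15.3 (-2.139) and ZC15.1 (-1.541), and the last of these was lost without any of 7 single libraries. The slope over the generations at 23 °C differed for F41G4.7 (-0.5409) and ZC15.10 (-0.3091), and both were lost without 23C-G1 of either genotype. In the 10 groups of 6 libraries of a genotype at 23 °C, 0 libraries stood apart from the others by a test of gaps.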

How the results depend on the processing

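No called result turned its direction under the 11 other settings or without any of the 24 libraries. Some uncalled values near 0 did, such as ZC15.10 in phase II (-0.19 to 0.32 with 1 library left out). The pair tests were rerun only with a pseudocount of 10 and without each library, and kept their side of the threshold. Of the single-member values under the other settings, 708 kept their side, 9 were newly called and 8 lost a call (heat in hrde-1 for F41G4.7, heat in WT for ZC15.1, the lasting WT change for F41G4.5 and the slope differences of F41G4.7 and ZC15.10, under the settings below). Newly called were ZC15.10 in phase III (-1.04), F41G4.7 in phase I and F41G4.7 for recovery in WT under median-ratio scaling, ZC15.10 for the heat difference (adjusted p = 0.0974 in limma) and ZC15.3 for the slope difference (0.0922) under the 10 RPKM filter, ZC15.3 for heat in WT (1.0) with 1 read taken off, and 3 under the block.

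With 23C-G1 counted at 23 °C, 0 members were called lower for heat in hrde-1. Without 23C-G1 the slopes gave 6 genes in WT (103 with it), 55 in hrde-1 (232) and 0 for the difference (34), with 0 members lower (2). With a filter at a mean of 10 RPKM, which leaves fewer genes, 223 genes were called for the lasting change in WT (711 before), 762 for recovery in WT (1250) and 701 in hrde-1 (1209). A pseudocount of 0.1 gave 1080 and 2036 genes for lasting and recovery changes in WT. A pseudocount of 10 gave 914 genes in phase I (1551), 709 in phase II (1131), 943 in phase IV (1586), 623 for heat in WT (1306) and 559 in hrde-1 (1271), 131 for the lasting change in WT, and 426 and 392 for recovery in WT and hrde-1; 1 member was then higher for heat in WT (2) and 1 for the lasting change in WT (2). Median-ratio scaling, which moved the all-gene median of the lasting WT change from -0.128 to -0.229, called 1 member lower in phase I (F41G4.7), 1 higher for the lasting change in WT, 1 lower for recovery in WT and 1 lower for the slope difference. With the value of 1 read taken off, 370 genes were called for the lasting WT change, 165 for the recovery difference (251), 41 for the WT slope and 18 for the slope difference, with 1 member lower. The cause of these shifts was not tested.

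The replicate block by generation called 1 member lower for the recovery difference (F41G4.5, -1.04) and 67 genes for the slope difference. It also called the heat difference of ZC15.10 (adjusted p = 0.0294 in limma) and the lasting difference of F41G4.5 (adjusted p = 0.0721), and changed no other member's call. Same-numbered libraries deviated together with a correlation above 0.1 in 10 of 12 generations, from -0.0161 to 0.367, and 9 of 12 correlated best with their own number within the phase. This is a hint of pairing from the data, not the design, and a correlation above 0.1 in all generations, as required here for a pairing, was not reached.

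Leaving out 1 library gave 0 to 1 members lower in phase I, 2 to 3 lower in phase III, 1 to 4 higher for heat in WT and 2 to 3 lower for the heat difference. The lasting WT change gave 157 to 784 genes (157 without WT p15C-G2, and fewer by over 1.5 times also without any WT 15C or hrde-1 p15C library, WT 23C-G2, 23C-G3 or p15C-G3, or hrde-1 23C-G2, 23C-G3, 23C-G4 or 23C-G6) and 1 to 2 members higher, and 2 to 3 members were lower for it in hrde-1 and 2 to 4 for its difference. Recovery in WT gave 0 to 1 members lower, and its difference 145 to 288 genes (145 without WT p15C-G3, 153 without hrde-1 p15C-G3) and 0 to 2 members lower. Slopes gave 4 to 211 genes in WT (4 without 23C-G1, 36 without 23C-G6, 211 without 23C-G5), 67 to 265 in hrde-1 (67 without 23C-G1, 121 without 23C-G6) and 2 to 42 for the difference (2 without WT 23C-G1, 12 without hrde-1 23C-G1, 20 without WT 23C-G6), with 0 to 3 members lower. Values with few reads, those of F41G4.7 in hrde-1 after heat above all, limit the precision of the folds.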
